A study of Rattus norvegicus with 14 samples.

Results

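The genes described here encode enzymes of cholesterol synthesis, and their expression was followed in the postnatal rat epididymis, the duct in which spermatozoa mature and are stored. They were taken by symbol from the array annotation: Idi1, Fdps, Sqle, Lss, Cyp51, Tm7sf2 and Dhcr7. That is 7 of the 8 genes named by the rule, out of 18166 genes with a signal. Hmgcs1, the remaining one, had no transcript cluster of its own and was not analysed here. Whole epididymides of Sprague-Dawley rats were pooled for RNA, and the labels name no treatment or genetic change. There were 3 pools of day 7, 4 of day 18, 4 of day 28 and 3 of day 60. Pups of the younger ages were kept with lactating mothers, and the older rats were fed freely. One RatGene 2.0 ST array was run per pool, and the number of animals in a pool is not in the labels. Values are log2 signals after RMA normalization by the submitters, so a difference of 1 is a 2-fold change. Array medians lay between 5.21 and 5.42, and precision is limited by how few pools there are. A whole organ mixes epithelium, muscle, stroma, fat, vessels and luminal content, and in such a sample more cells of a type and more RNA per cell cannot be told apart.

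Cholesterol is built from acetyl units by a chain of enzymes. The first part of the chain makes mevalonate and then the isoprenoid farnesyl diphosphate, the middle part joins isoprenoids to squalene and closes the rings to lanosterol, and the last part trims lanosterol to cholesterol. When membranes hold little sterol, the transcription factor SREBP-2 (gene Srebf2) is released from the endoplasmic reticulum and raises the genes of the chain together, usually with the factors NF-Y, which binds CCAAT boxes, and Sp1, which binds GC boxes. In the epididymis the sterols of sperm membranes change as the cells move along the duct, and the duct epithelium is a site of active lipid metabolism.

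RefSeq promoters of the rat build GRCr8 matched 6 of the 7 genes, all but Sqle. The sequences are shown because textbooks count these genes as SREBP targets, while their signals did not all move alike. Each line runs 5′ to 3′ over the 150 bases before the annotated start; that of Tm7sf2 ends 32 bases before it, where the longest annotated form of the gene begins. Capitals mark CCAAT boxes on either strand (CCAAT or its complement ATTGG) and, in Fdps, the element known as SRE-3 (sterol regulatory element 3).
Idi1 (chr17:66547525-66547674, minus strand): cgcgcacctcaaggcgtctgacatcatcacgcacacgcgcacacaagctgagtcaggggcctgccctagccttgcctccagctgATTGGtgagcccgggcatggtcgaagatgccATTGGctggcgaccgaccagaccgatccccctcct
Fdps (chr2:176804817-176804966, minus strand): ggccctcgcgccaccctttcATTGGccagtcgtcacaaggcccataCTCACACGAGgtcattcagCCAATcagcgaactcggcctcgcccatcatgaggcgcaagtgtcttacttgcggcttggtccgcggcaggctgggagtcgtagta
Lss (chr20:12118231-12118380, minus strand): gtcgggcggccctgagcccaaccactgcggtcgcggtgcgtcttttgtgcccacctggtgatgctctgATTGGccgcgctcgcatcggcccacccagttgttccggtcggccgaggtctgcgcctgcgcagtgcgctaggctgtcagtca
Tm7sf2 (chr1:212789573-212789691, minus strand): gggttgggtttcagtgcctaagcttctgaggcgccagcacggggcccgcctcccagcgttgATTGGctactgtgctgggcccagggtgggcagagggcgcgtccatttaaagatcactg
Cyp51 (chr4:30991543-30991692, plus strand): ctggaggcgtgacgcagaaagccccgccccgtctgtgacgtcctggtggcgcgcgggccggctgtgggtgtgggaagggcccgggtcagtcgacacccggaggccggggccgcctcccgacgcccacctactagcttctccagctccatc
Dhcr7 (chr1:208444284-208444433, plus strand): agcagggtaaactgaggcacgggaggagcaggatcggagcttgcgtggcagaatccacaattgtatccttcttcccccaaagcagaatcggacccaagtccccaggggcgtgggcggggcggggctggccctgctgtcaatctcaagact

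Motifs were searched on both strands over the 250 bases before the start. CCAAT was found in 4 of the 6 promoters, those of Idi1, Fdps, Lss and Tm7sf2, against 34% of 33469 RefSeq promoters of the same length. In Idi1 the boxes begin 66 and 35 bases before the start, in Fdps 130 and 85, in Lss 82 and in Tm7sf2 89. Cyp51 and Dhcr7 held none in this window. Of 10 promoters of other enzymes of the pathway, 8 held a CCAAT box: Ebp, Ggps1, Hsd17b7, Lbr, Msmo1, Mvd, Nsdhl and Sc5d. Of these, Ggps1 and Lbr had lower signals at day 60 than at day 7, Mvd differed by 0.06, and the others had higher signals. The GC box GGGCGG was found in 5 of the 6, all but Idi1, against 30.5% of promoters. The core of the sterol regulatory element, TCACNCCAC, was found in 0 of the 6 (0.974% of promoters), and the fuller form SRE-1, which contains that core, occurs in 0.105% of promoters. In Fdps the element SRE-3 lies 104 bases before the start, between the CCAAT boxes. It was searched for after the sequence had been seen, and it occurs in 0.0359% of promoters. CCAAT matches overlapped no other motif, and the pair of GC boxes in Dhcr7 overlapped each other. A match is a run of letters and not a shown binding site, and a motif without a match here says nothing about its factor.

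**Figure D1:**
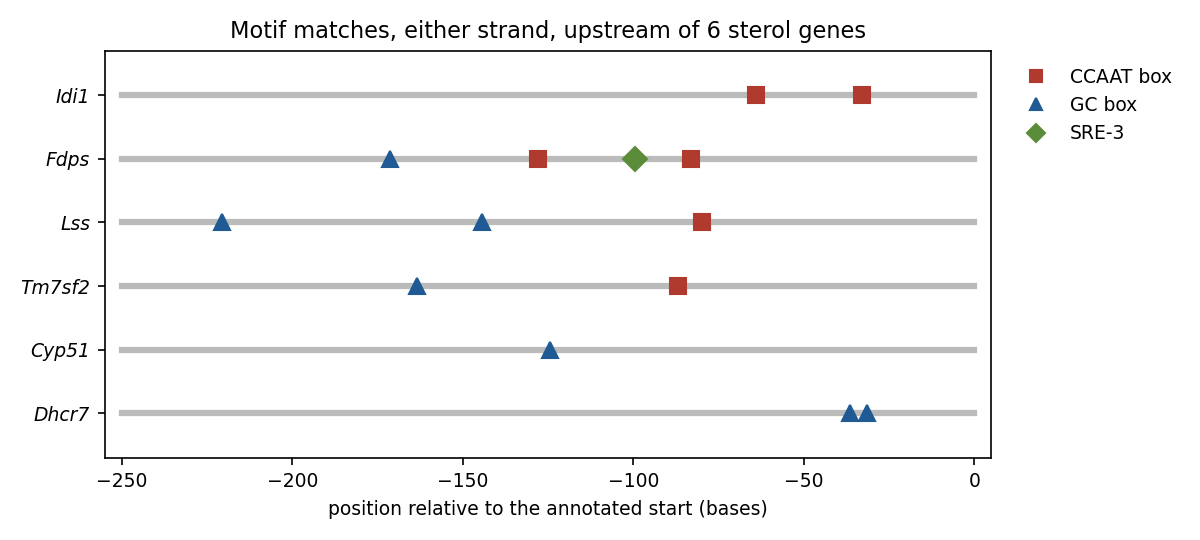
Matches of the CCAAT box, GC box and SRE-3 on either strand (symbols) along the 250 bases before the annotated start of 6 genes (grey lines, x axis in bases). CCAAT boxes lie within 130 bases of the start in Idi1, Fdps, Lss and Tm7sf2, and Cyp51 and Dhcr7 show GC boxes only.

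Over the whole span from day 7 to day 60, 6 of the 7 genes rose and Dhcr7 fell. Here rose, fell and called mean an adjusted p under 0.05 in limma's test, with Benjamini-Hochberg adjustment over all genes measured. In this comparison 21.7% of all genes were higher and 27.6% lower. Tm7sf2 rose the most, 6.29-fold, and Cyp51 the least, 1.48-fold. The median log2 difference of the 7 genes was 1.32, against -0.03 over all genes. All 7 differed among the 4 ages (limma F test, adjusted p between 5.4e-11 and 0.000281), as did 60.4% of all genes. Most of the gain was made by day 28. From day 28 to day 60 Sqle was called higher and Idi1 and Fdps lower, where 13.8% of all genes were higher and 11.2% lower. The differences of the other 4 did not pass the test. The calls of Fdps and Sqle did not hold under every alternative, as given below.

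**Figure D2:**
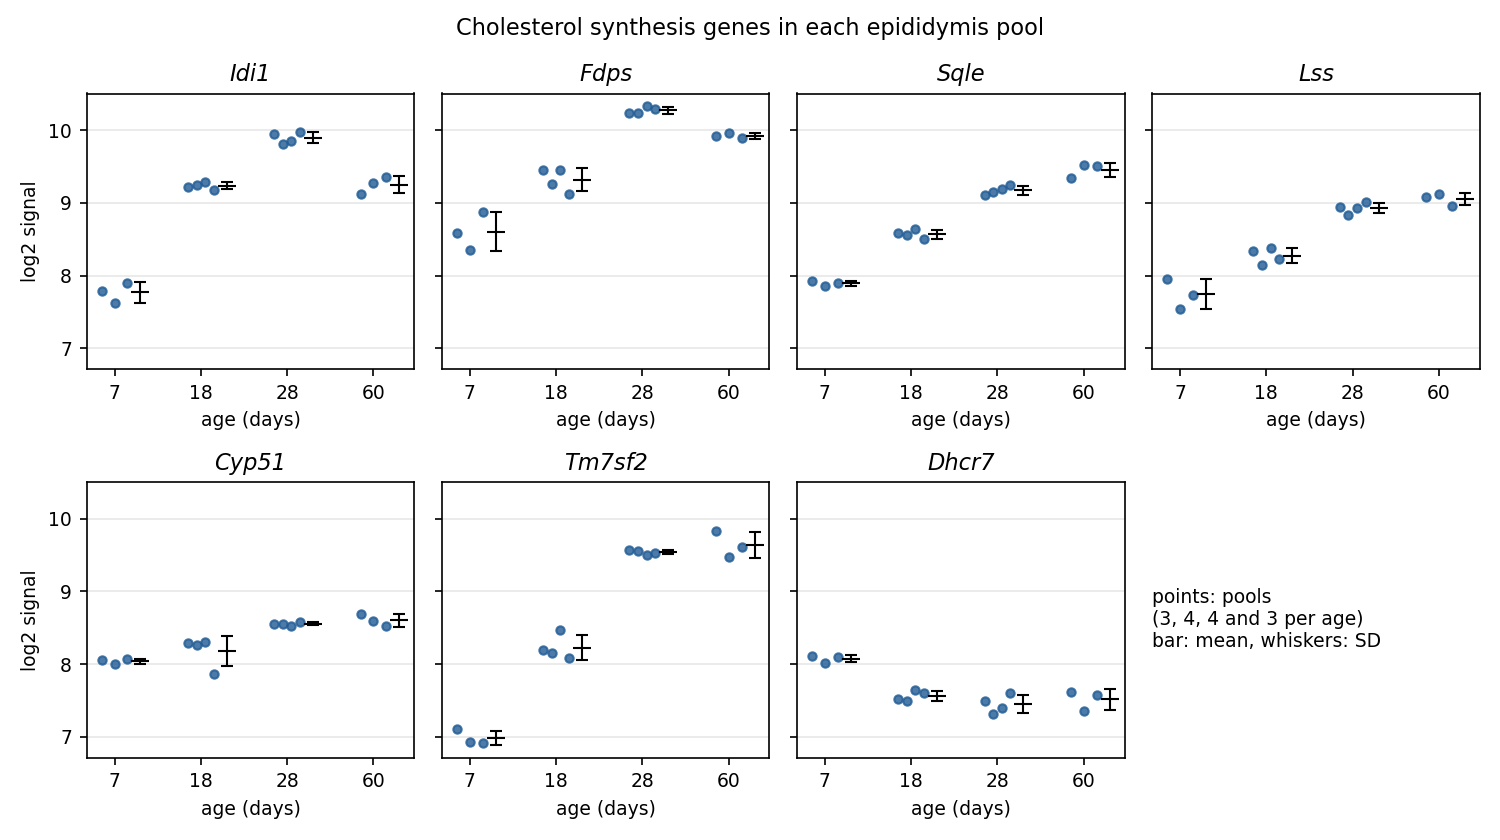
Log2 signal (y axis) of the 7 genes in each of 14 pools (points) at 4 ages (x axis, days), with the mean and SD of each age as a bar with whiskers. Idi1 and Fdps peak at day 28, Sqle is highest at day 60, and Dhcr7 is highest at day 7.

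Idi1 encodes isopentenyl diphosphate isomerase, which interconverts the pair of isoprenoid units from which farnesyl diphosphate is made. Its log2 signal was 7.78, 7.62 and 7.90 in the day 7 pools, 9.22, 9.24, 9.29 and 9.18 at day 18, 9.95, 9.81, 9.86 and 9.97 at day 28, and 9.12, 9.27 and 9.35 at day 60. The ages did not overlap except day 18 and day 60. Idi1 rose by 1.46 ± 0.085 to day 18 (log2 difference ± SE, limma adjusted p = 5.88e-09), the largest rise of the 7 genes at that step, and by 0.66 ± 0.078 to day 28 (adjusted p = 2.02e-05). It then fell by 0.65 ± 0.085 to day 60 (adjusted p = 7.01e-05), and only 1.94% of all genes had a lower difference at that step. Its day 60 level was 0.01 ± 0.085 from that of day 18 (95% interval -0.17 to 0.19, adjusted p = 0.92).

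Fdps encodes farnesyl diphosphate synthase, the enzyme at the branch point to sterols, dolichol, ubiquinone and prenyl groups. Its signal was 8.59, 8.35 and 8.88 at day 7, 9.46, 9.26, 9.45 and 9.12 at day 18, 10.24, 10.23, 10.33 and 10.30 at day 28, and 9.92, 9.97 and 9.89 at day 60. Every age was apart from every other, in the order day 7, day 18, day 60 and day 28. Fdps rose by 0.72 ± 0.11 to day 18 (limma adjusted p = 0.000136) and by 0.96 ± 0.10 to day 28 (adjusted p = 9.97e-06). The fall to day 60 was 1.28-fold (-0.35 ± 0.11, adjusted p = 0.0341). This call ended with the arrays centred on their medians (-0.29, adjusted p = 0.111), among all clusters (adjusted p = 0.0669), and without any 1 of 6 pools: day 28 replicate 1 (adjusted p = 0.0517), 3 (0.074) or 4 (0.0644), and day 60 replicate 1 (0.0837), 2 (0.0647) or 3 (0.1). With only the pools of day 28 and day 60 in the fit the adjusted p was 0.0152, and over all alternatives the range was 0.00767 to 0.111.

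Sqle encodes squalene epoxidase, which adds the oxygen that precedes ring closure and is a slow, regulated step of the chain. Its signal was 7.93, 7.86 and 7.90 at day 7, 8.58, 8.55, 8.64 and 8.50 at day 18, 9.10, 9.15, 9.19 and 9.24 at day 28, and 9.34, 9.52 and 9.51 at day 60. Each age lay wholly above the one before. The rises were 0.67 ± 0.071 (limma adjusted p = 2.88e-06), 0.60 ± 0.066 (adjusted p = 9.5e-06) and 0.28 ± 0.071 (adjusted p = 0.00916). Sqle was the 1 gene of the 7 that was called higher at day 60 than at day 28. With only the pools of those ages in the fit this rise had an adjusted p of 0.051, and over all alternatives the range was 0.00231 to 0.051.

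Lss encodes lanosterol synthase, which closes the rings. Its signal was 7.96, 7.55 and 7.74 at day 7, 8.34, 8.15, 8.38 and 8.23 at day 18, 8.94, 8.83, 8.94 and 9.01 at day 28, and 9.08, 9.12 and 8.95 at day 60. The last pair of ages overlapped and the others did not. Lss rose by 0.53 ± 0.097 to day 18 (limma adjusted p = 0.0005) and by 0.66 ± 0.090 to day 28 (adjusted p = 8.29e-05). From day 28 to day 60 the difference was 0.12 (95% interval -0.08 to 0.33, adjusted p = 0.398).

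Cyp51 encodes lanosterol 14-alpha-demethylase, the first enzyme to act on lanosterol. Its signal was 8.05, 8.0 and 8.06 at day 7, 8.28, 8.27, 8.30 and 7.87 at day 18, 8.56, 8.56, 8.53 and 8.58 at day 28, and 8.70, 8.59 and 8.52 at day 60. Replicate 4 of day 18 lay below all the day 7 pools, and the other day 18 pools lay above them. The difference from day 7 to day 18 was 0.14 ± 0.098 (limma adjusted p = 0.287), and without that pool it was 0.25 ± 0.072 (adjusted p = 0.0163), a call that no other alternative gave. Cyp51 rose by 0.38 ± 0.090 to day 28 (adjusted p = 0.00699), and its difference from day 28 to day 60 was 0.05 (95% interval -0.16 to 0.26). Beside Dhcr7 it was the gene of the 7 that changed least over the span.

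Tm7sf2 encodes a sterol reductase of the C14 position, the step after Cyp51. Its signal was 7.10, 6.93 and 6.92 at day 7, 8.19, 8.16, 8.47 and 8.08 at day 18, 9.57, 9.56, 9.51 and 9.53 at day 28, and 9.82, 9.47 and 9.61 at day 60. Both early steps separated the ages completely, and the last did not. Tm7sf2 rose by 1.24 ± 0.10 to day 18 (limma adjusted p = 2.13e-07) and by 1.32 ± 0.095 to day 28 (adjusted p = 1.5e-07). These differences were above those of 98.2% and 99% of all genes. From day 28 to day 60 the difference was 0.10 (95% interval -0.12 to 0.32, adjusted p = 0.54).

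Dhcr7 encodes 7-dehydrocholesterol reductase, a terminal enzyme of the chain, whose substrate is also the precursor of vitamin D. Its signal was 8.11, 8.02 and 8.10 at day 7, 7.52, 7.49, 7.64 and 7.60 at day 18, 7.49, 7.31, 7.40 and 7.60 at day 28, and 7.62, 7.35 and 7.58 at day 60. The day 7 pools lay above all others, and the later ages overlapped. Dhcr7 fell by 0.51 ± 0.089 to day 18 (limma adjusted p = 0.000297). The later differences were -0.11 (95% interval -0.29 to 0.06) and 0.07 (95% interval -0.12 to 0.25). It was the 1 gene of the 7 that fell over the span, by 0.56 ± 0.095 (adjusted p = 0.000147).

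**Figure D3:**
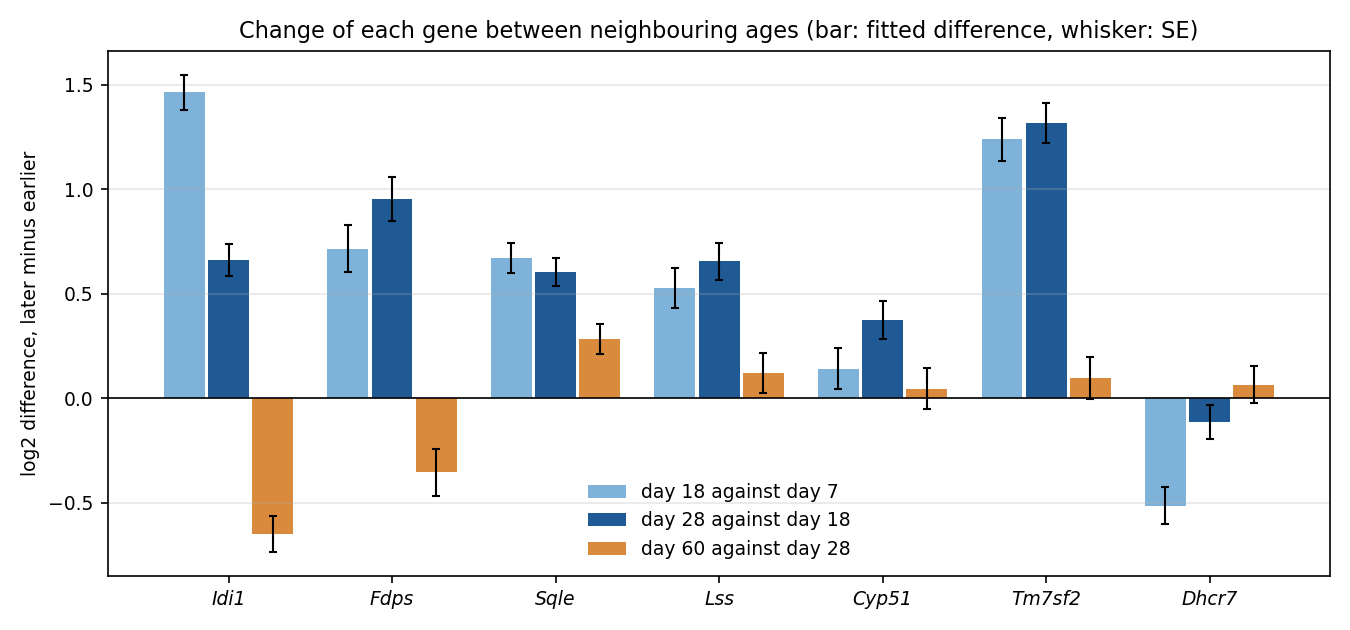
Fitted log2 differences between neighbouring ages (y axis) for the 7 genes in pathway order (x axis), with the SE as whiskers. The bars for day 60 against day 28 point down for Idi1 (-0.65) and Fdps (-0.35) and up for Sqle (0.28).

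From day 7 to day 18, 5 of the 7 genes rose and 1, Dhcr7, fell, while 17.4% of all genes were called higher and 20.7% lower. From day 18 to day 28, 6 rose and 0 fell, against 10.5% higher and 14.3% lower among all genes. From day 28 to day 60, 1 rose and 2 fell, against 13.8% higher and 11.2% lower. The same counts of the 7 genes had every later pool above, or below, every earlier pool. Among all genes these shares were 21% above and 24.1% below for the step to day 18, 10.9% and 15.6% for the step to day 28, and 17.1% and 14.3% for the step to day 60. Of the genes called, the higher ones made up 42.3% for day 28 against day 18 and 55.2% for day 60 against day 28, and 31.7% and 71.7% with the arrays centred on their medians. From day 18 to day 60, a comparison added after the values had been seen, 5 of the 7 were higher and 0 lower, against 19% and 22.1% of all genes. Replicate 2 of day 28 was set off from its age group on the third principal component (score 25.2 against 14.2 to 15.9), and without it the counts of the 7 genes called in each direction were the same in all 5 comparisons. The comparisons share pools, so their counts are not independent of each other.

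The rest of the pathway was described from a list of 15 further genes, of which 12 had a cluster. From day 7 to day 60, 6 of the 12 rose, 3 fell and 3 did not pass the test, with a median of 0.39. For all genes the shares were 21.7% higher and 27.6% lower. The largest rise was that of Ebp, the sterol isomerase of the late chain, by 2.97 ± 0.096 (limma adjusted p = 3.4e-12), larger than that of any of the 7. Sc5d, the sterol desaturase that follows it, rose by 1.31 ± 0.11 (adjusted p = 1.08e-07), with a called rise at each step. The other risers were Hsd17b7, Msmo1 and Nsdhl, of the removal of methyl groups from lanosterol, and Fdft1, squalene synthase, with differences of 1.0, 0.95, 0.69 and 0.60. Lbr, a nuclear envelope protein with the same C14 reductase activity as Tm7sf2, fell by 0.41 ± 0.083 (adjusted p = 0.000645), so the genes for this step moved in opposite directions. Ggps1, which leads farnesyl diphosphate to geranylgeranyl diphosphate, fell by 0.44 ± 0.15 (adjusted p = 0.0259), and Erg28, a scaffold of the demethylation complex, by 0.31 ± 0.090 (adjusted p = 0.00892). Acat2, Pmvk and Mvd, of the first part of the chain, differed by 0.18, 0.06 and 0.06 and did not pass.

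**Figure D4:**
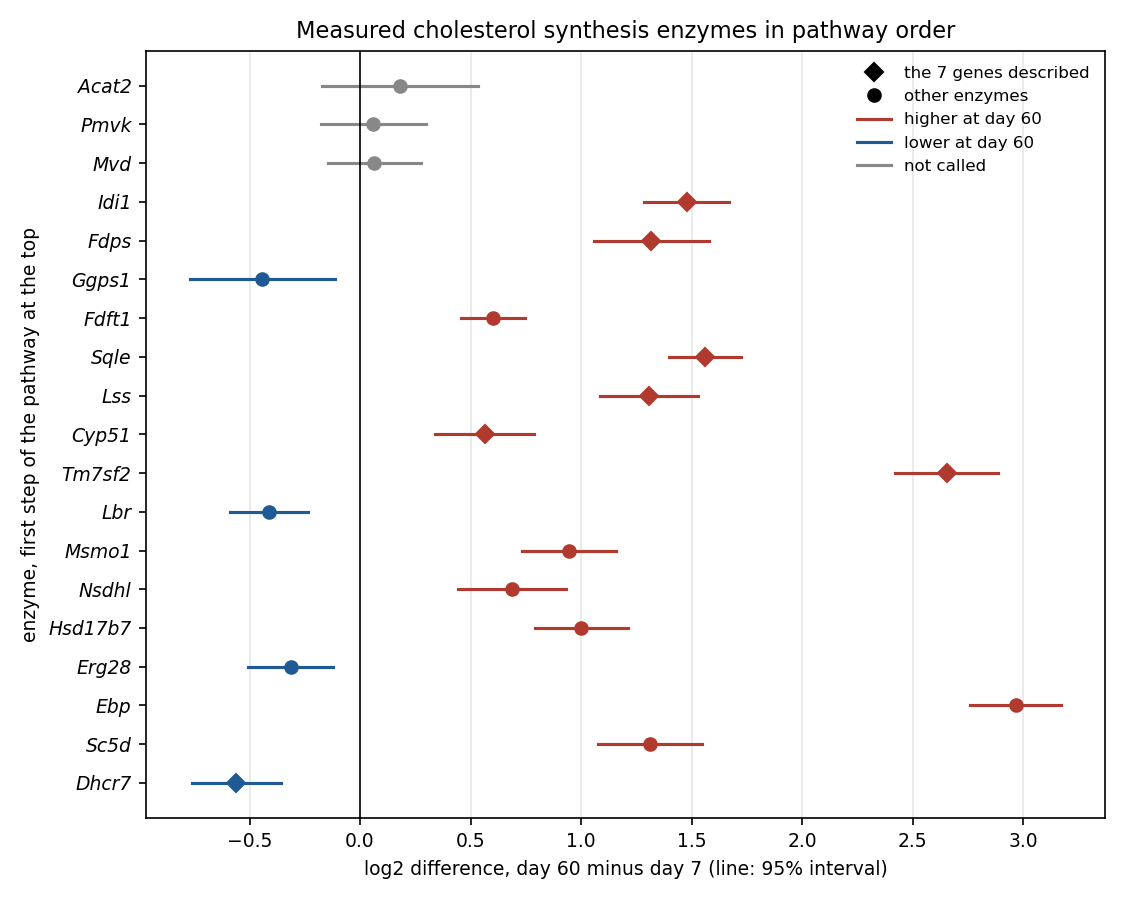
Log2 difference of day 60 minus day 7 (x axis, point) with its 95% interval (line) for 19 measured genes of the pathway, ordered from the first step at the top. Diamonds mark the 7 genes described, circles the other 12, and colours mark called higher, called lower and not called. Ebp (2.97) and Tm7sf2 (2.65) lie farthest to the right.

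By part of the pathway, all 3 measured genes from squalene to lanosterol (Fdft1, Sqle and Lss) rose at both steps up to day 28. Among all genes 17.4% were called higher at the step to day 18 and 10.5% at the step to day 28. From lanosterol to cholesterol 7 of 10 rose over the span, against 21.7% of all genes. The 3 that fell, against 27.6% of all genes, were Lbr, Erg28 and Dhcr7. In the first part of the chain, from acetyl units to farnesyl diphosphate, 2 of 5, Idi1 and Fdps, rose over the span. At the last step, day 28 to day 60, 3 of these 5 fell and 0 rose, against 11.2% lower and 13.8% higher among all genes. They were Idi1, Fdps, whose call ended under the alternatives given above, and Mvd (-0.28 ± 0.092, limma adjusted p = 0.0407), for which no alternative was run. In the same step 3 of the 10 late genes rose (Ebp, Sc5d and Erg28) and 2 fell (Msmo1 and Lbr).

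Among the genes that sense sterol, Insig1 and Srebf1 had the largest called rises. Of 14 measured genes of sterol sensing and SREBP processing, 8 were higher and 2 lower at day 60 than at day 7 (median 0.39). Among all genes the shares were 21.7% higher and 27.6% lower. Insig1, which holds SREBP back when sterol is plentiful and is itself an SREBP target, rose by 1.66 ± 0.093 (limma adjusted p = 1.2e-09), with called rises of 0.71 and 0.70 at the early steps. Srebf1, the family member that favours fatty acid genes, rose by 0.97 ± 0.089 (adjusted p = 2.91e-07), of which 0.86 came by day 18. Srebf2 rose by 0.40 ± 0.071 to day 18 (adjusted p = 0.000378), and its later differences of -0.04 and 0.16 did not pass. The falls were those of Rnf145, a ubiquitin ligase, by 0.76 ± 0.083, and Mbtps1, a protease that cuts SREBP, by 0.28 ± 0.079.

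Of 16 genes of fatty acid synthesis, 13 rose over the span, 1 fell and 2 did not pass, with a median of 1.06. Shares of all genes over the span, for this and the next lists, were 21.7% higher and 27.6% lower. At the early steps 11 and 11 rose, against 17.4% and 10.5% of all genes. From day 28 to day 60 there were 2 rises and 1 fall, against 13.8% higher and 11.2% lower among all genes. Scd, stearoyl-CoA desaturase, rose by 5.02 ± 0.16 (limma adjusted p = 2.45e-12) and Thrsp, a regulator of lipogenesis, by 4.64 ± 0.080 (adjusted p = 1.26e-14). Agpat2, of glycerolipid synthesis, fell by 0.49 ± 0.12. Of 14 genes of cholesterol uptake and transport 6 rose and 2 fell: Npc2, a luminal sterol carrier that is abundant in epididymal fluid, rose by 1.93 ± 0.074, Gramd1b by 1.49 ± 0.099, and Lipa and Stard5 fell by 0.55 ± 0.12 and 0.27 ± 0.10. Of 11 genes of efflux and esters 8 rose and 1 fell: Apoe, an apolipoprotein, rose by 1.94 ± 0.15, Abcg4 by 1.38 ± 0.15, and Soat2, the gene called lower, lay at all ages under the background level of 4.92, the 95th percentile of olfactory and vomeronasal receptor genes.

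Among 8 oxysterol genes 5 rose and 1 fell. Sult2b1, which adds sulphate to cholesterol, rose by 3.00 ± 0.097 (limma adjusted p = 3.12e-12) with a called rise at each step, Cyp27a1, sterol 27-hydroxylase, rose by 1.28 ± 0.12, and Cyp7b1 fell by 0.45 ± 0.12. Of 10 genes for other products of mevalonate 4 rose and 3 fell, with a median of 0.04, where 21.7% of all genes were higher and 27.6% lower. Dhdds and Nus1, the subunits of the enzyme that starts dolichol, rose by 1.29 ± 0.078 and 0.57 ± 0.083. Fntb, of protein farnesylation, and Pdss2, of ubiquinone synthesis, fell by 0.70 ± 0.11 and 0.52 ± 0.12.

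Markers of the tissue and of other cells moved over the same ages, where 21.7% of all genes were higher and 27.6% lower at day 60. Of 15 epithelial markers of the epididymis 14 rose and 1, Epcam, fell by 0.33 ± 0.090 from day 7 to day 60. Their mean log2 level went from 5.53 to 5.69 over the day 7 pools to between 11.06 and 11.19 at day 60, with Adam7 at 13.22 and Rnase9 at 11.82. At day 7 the secretory markers Adam7, Rnase9, Crisp1, Adam28, Cst8, Cst11, Rnase10 and Defb1 lay under the background level. Cdh1, a marker of all epithelia, was at 10.70 ± 0.1 at day 7. Of 14 adipocyte markers 14 rose, their mean level going from 5.90 to 6.16 up to 7.57 to 7.78, with Adipoq up by 4.09 ± 0.42 and Cidec by 2.61 ± 0.28. Within day 18 Adipoq ranged from 6.74 to 8.75 between pools (SD 0.87), and the SDs of the 7 sterol genes there lay between 0.047 (Idi1) and 0.21 (Cyp51). The part of epithelial and fat cells in the changes of the sterol genes was not tested beyond these values.

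The other markers moved in other ways, over a span in which 21.7% of all genes were called higher and 27.6% lower. Cell division genes fell, 10 of 10 over the span, from a mean level of 8.99 to 9.11 to one of 6.62 to 6.76, with Ccna2 down by 2.54 and Aurkb by 2.52. Haploid germ cell markers rose in 9 of 10, with 9 of 10 rising from day 28 to day 60, and Smcp and Odf1, under the background level at day 7, lay between 9.79 and 10.25 and between 8.25 and 8.88 at day 60. Their mean level at day 60 was 7.01 to 7.52, and at the earlier ages it was at most 4.71. Fibroblast and matrix markers fell in 8 of 9, with Postn down by 2.97 and Lum by 1.84. Of 7 smooth muscle markers 2 rose (Synm by 1.40 and Myh11 by 0.57) and 3 fell, among them Myocd by 1.13 and Smtn by 0.63. Of 7 endothelial markers 2 rose (Vwf by 1.10 and Tek by 0.32) and 3 fell, among them Cdh5 by 0.69 and Tie1 by 0.42. Of 10 macrophage markers 2 rose (Cd163 by 1.46 and Cd68 by 0.52) and 1, Cd14, fell by 0.43. Of 7 markers of steroid-making cells 1 rose, Cyp11a1, from under the background level at day 7 to 6.18, and 1 fell, Lhcgr by 0.49 ± 0.12, and Cyp17a1 lay under the background level at every age. Their part in the result was not tested.

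**Figure D5:**
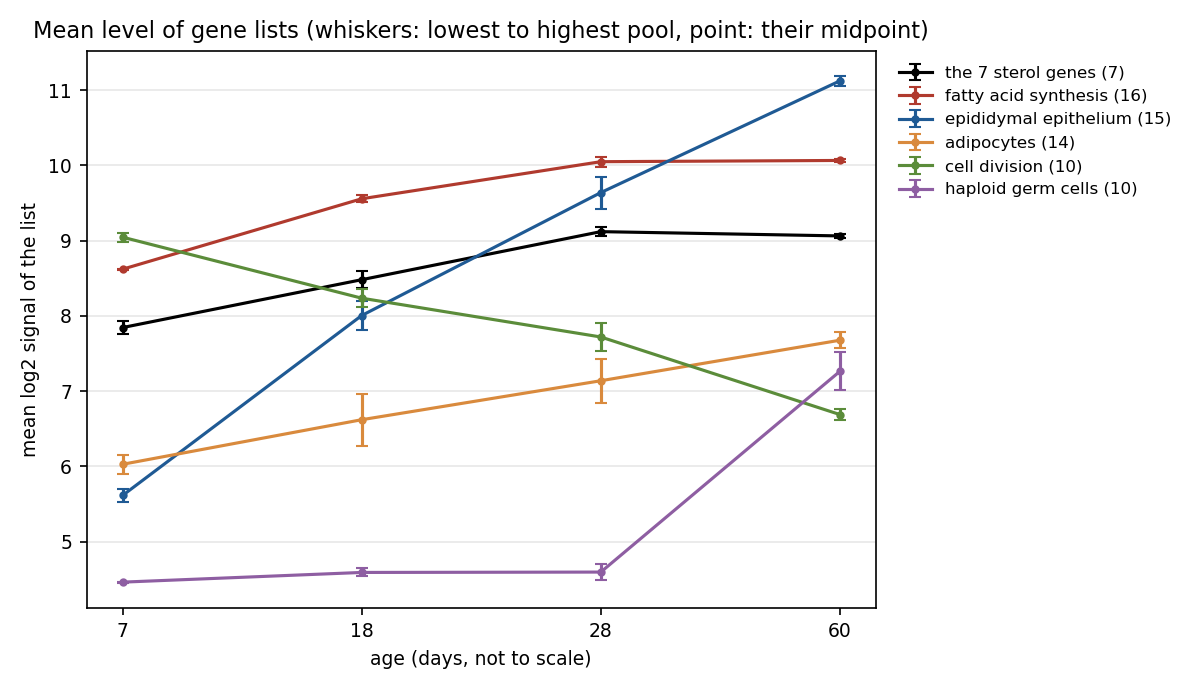
Mean log2 signal (y axis) of the 7 sterol genes and of 5 gene lists at 4 ages (x axis, days), with whiskers from the lowest to the highest pool and the point at their midpoint. The means of the sterol and fatty acid genes level off after day 28, while that of the epithelial markers goes on rising. Of these 15 markers 7 were called higher and 1 lower from day 28 to day 60, against 13.8% and 11.2% of all genes. Cell division genes go on falling, and germ cell markers are flat up to day 28 and high at day 60.

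Some genes followed the sterol genes closely over the 14 pools. The mean of the 7 genes, each centred on its own mean, was most like Nxf3 (Pearson r = 0.996), Slc5a6 (0.994), Pate10 (0.993), Pate7 (0.993) and Acly (0.992). Acly makes the cytosolic acetyl-CoA from which sterols and fatty acids are built, Slc5a6 carries biotin and pantothenate, and the Pate genes encode small secreted proteins. Idi1 was most like Fkbp2, of protein folding in the endoplasmic reticulum (0.994), and Phyh, of peroxisomal fatty acid oxidation (0.99). Tm7sf2 was most like Pate10 and Pate3 (both 0.996), Sqle like Fam83e (0.997) and Tpmt (0.995), and Lss like Rnase10 (0.987) and St8sia6 (0.986). Fdps was most like Pdia4, a disulphide isomerase (0.978), and St6gal1, a Golgi sialyltransferase (0.978). Cyp51 had looser matches, B3gnt5 (0.954) and Shbg (0.942), and Dhcr7 was most like Npb (0.975) and Mapk1ip1l (0.967). These values describe the pools and carry no p, since the pools of an age share that age.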

How the data were processed

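The authors deposited log2 signals of 36685 transcript clusters, 1 for each array; RMA and the Transcriptome Analysis Console are named per the submitters' processing notes, without settings or versions, and the annotation and build are not given in the sources used here. Symbols came from the array annotation given with the clusters (18511 clusters with 1 symbol, 575 with several, 17599 not listed), and 18394 matched RefSeq by gene identifier. For a gene with several clusters the one with the highest mean was used, which gave 18166 genes; each of the 7 genes described has 1 cluster. No filter on low signal was applied.

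With limma 3.58.1 (R 4.3.3; lmFit, eBayes) age means were estimated from the 14 arrays together, tests were two-sided, and Benjamini-Hochberg adjustment covered all 18166 genes, with 0.05 as the threshold; "rose" and "fell" refer to it. Levels carry the SD over pools and differences the SE of the fit. The p-values measure the spread between pools. The fit was tested on simulated data. Genes named from a list are its 2 largest called rises and falls from day 7 to day 60, with Srebf1, Srebf2 and Insig1, and others complete a count. Some listed genes are not reported here. The members and lists were chosen with earlier results of these data known.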

Additional observations from a re-analysis of the deposited data

Results flagged for a closer look

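Of 14 sets of 4 pools (the 7 genes at day 18 and day 28), 1 held a pool far from the others, and chance gives about 1 in 20. Cyp51 in replicate 4 of day 18 had a log2 signal of 7.87, while the other 3 pools lay between 8.27 and 8.30. The gap was 0.913 of the range of the group, above the critical value of 0.829.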

How the results depend on the processing

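Each difference was recomputed under 8 other settings (quantile normalization again, arrays centred on their medians, the brighter genes alone, limma's trend and robust options, only the ages compared, the replicate block, the mean of a gene's clusters and every cluster) and without each of the 14 pools in turn. Of 770 such values for the 7 genes in 5 comparisons, 760 kept their side of the threshold, 9 lost a call and 1 gained one. A difference called in either fit changed direction in 0 of them. In many of them it could not change. Each of the 7 genes has 1 cluster, so the cluster settings left its difference as it was. The same holds for the brighter genes alone, the trend and robust options, and only the ages compared. Leaving out a pool of an age that was not compared also left it as it was. In these only the SE and the adjusted p could change. Differences that passed in neither fit were counted as kept even where their sign changed. For Cyp51 from day 28 to day 60 the difference was 0.047, and -0.025 with quantile normalization again. The changed calls were those of Fdps and Sqle from day 28 to day 60 and of Cyp51 from day 7 to day 18. From day 28 to day 60 the count of the 7 genes called lower was 1 in place of 2 with centred arrays and with every cluster, and between 1 and 2 without a pool; the count called higher was 0 in place of 1 with only the ages compared. With centred arrays the genes called lower in that step, over all genes, were 1104 in place of 2039, and the median gene moved by 0.07. The cause of these changes was not tested. The other counts stayed within 1.5 times their value. Deviations of same-numbered pools of neighbouring ages correlated at -0.143 to 0.025, so no pairing by number was seen. The labels do not say whether a number marks shared material, and so few pools cannot settle it. With the replicate block 5 and 1 of the 7 genes were called higher and lower from day 7 to day 18, 6 and 0 from day 18 to day 28, and 1 and 2 from day 28 to day 60, as without it, with an adjusted p of 0.0308 for Fdps and 0.0257 for Sqle in the last step. Signals under the background level, such as those of secretory genes at day 7, limit the size of the folds that start there.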
